A study of Mus musculus with 28 samples.

Results

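The livers of 3 control females on a high-fat/cholesterol diet (HFC; animals 420, 510 and 512) were compared with the livers of 3 control females on a low-fat control diet (CTD; animals 306, 308 and 318). These 6 libraries were taken by their column names from the count table of 12 female libraries and are 6 of 28 in the series, which also holds 16 male libraries. Every mouse was a C57BL/6 animal, 13 weeks old by the labels, although the labelled steps given next add up to 1 week less. The control genotype (CT) is a floxed control without the deletion that defines the knockout genotype (EC-Myc KO, here KO), in which c-Myc is removed from endothelial cells. CT and KO mice alike received tamoxifen at 5 weeks of age, waited 2 weeks and then stayed on HFC or on CTD for 5 weeks, so tamoxifen is shared by all groups. The promoter that drives the Cre, and whether the control mice carry a Cre, were not stated in the sources used here. The same diet comparison in KO females (3 against 3) and, in CT males, 4 animals on HFC against 4 on CTD were used to ask whether the response of the control females differed from theirs. All 32544 genes of the table were considered, and 13999 had enough counts to be tested.

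Some background helps to place the genes. Hepatocytes sense sterols in the endoplasmic reticulum: when sterol is plentiful, the transcription factor SREBP-2 is held back and the genes of cholesterol synthesis are transcribed less, while oxysterols activate LXR, which drives genes of sterol efflux. Cholesterol leaves the liver as bile acid, and that pathway is restrained by the bile acid receptor FXR through its target SHP. In rodents many liver genes also differ between the sexes, because the rhythm of growth hormone secretion differs between males and females and is read in hepatocytes by STAT5b. The P450 genes of the Cyp3a41 and Cyp3a44 group and the sulfotransferase gene Sult3a1 are classic genes of the female liver, and the major urinary protein (Mup) genes encode secreted pheromone carriers that are more abundant in males.

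Among the largest falls on HFC were 4 neighbouring Cyp3a genes of chromosome 5 and Sult3a1 on chromosome 10. Their promoters are shown because these genes moved together and 2 of them are near-copies that reads may not tell apart. The 250 bases before each start are printed 5′ to 3′ on the strand of the gene, from RefSeq on GRCm38.p6, and capitals in the sequences after the first mark bases that differ from Cyp3a41a after alignment.
Cyp3a41a (chr5:145720137-145720386, minus strand): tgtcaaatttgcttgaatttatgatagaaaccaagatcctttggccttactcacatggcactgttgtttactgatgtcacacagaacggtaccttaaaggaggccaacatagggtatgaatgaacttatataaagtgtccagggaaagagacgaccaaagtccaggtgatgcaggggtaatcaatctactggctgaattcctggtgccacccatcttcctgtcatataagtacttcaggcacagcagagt
Cyp3a41b (chr5:145584731-145584980, minus strand): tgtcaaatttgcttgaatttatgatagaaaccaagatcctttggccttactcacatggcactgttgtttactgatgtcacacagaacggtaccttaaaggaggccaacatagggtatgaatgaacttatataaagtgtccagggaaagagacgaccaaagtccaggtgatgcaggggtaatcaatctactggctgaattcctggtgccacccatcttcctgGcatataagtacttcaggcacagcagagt
Cyp3a44 (chr5:145805875-145806124, minus strand): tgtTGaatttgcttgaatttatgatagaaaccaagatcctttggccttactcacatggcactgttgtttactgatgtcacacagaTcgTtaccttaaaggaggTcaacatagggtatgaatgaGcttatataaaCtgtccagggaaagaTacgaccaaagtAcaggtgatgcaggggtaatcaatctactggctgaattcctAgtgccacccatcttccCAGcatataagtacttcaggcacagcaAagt
Cyp3a16 (chr5:145469724-145469973, minus strand): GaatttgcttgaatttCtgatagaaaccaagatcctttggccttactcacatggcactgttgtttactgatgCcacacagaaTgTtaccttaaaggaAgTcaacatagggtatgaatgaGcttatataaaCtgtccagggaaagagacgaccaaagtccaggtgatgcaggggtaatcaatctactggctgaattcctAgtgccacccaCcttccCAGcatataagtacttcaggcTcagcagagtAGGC
The window of Cyp3a41b differed from that of Cyp3a41a at 1 base (99.6% identity), that of Cyp3a44 at 14 bases (94.4%) and that of Cyp3a16 at 19 bases (90.9% of 254 aligned columns, gaps included). Transcripts show the same order: of the 2015 different stretches of 50 bases in the annotated transcripts of Cyp3a41b, 93.5% also occur in Cyp3a41a, whereas 26.5% of those of Cyp3a44 and 10.7% of those of Cyp3a16 occur in any other gene. Values of Cyp3a41a and Cyp3a41b are therefore uncertain as a split between these genes.

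Motifs were searched on both strands of the 250-base windows, and a match is a description of the letters, not of binding. The STAT5 motif TTCNNNGAA occurred in 7.02% of 32851 promoter windows of the RefSeq table, in 6 of the 160 windows of genes that fell on HFC and in 4 of the 128 windows of genes that rose. Among the female-predominant genes that fell, only Sult3a1 held it, 109 bases before the start, shown in capitals.
Sult3a1 (chr10:33857472-33857721, plus strand): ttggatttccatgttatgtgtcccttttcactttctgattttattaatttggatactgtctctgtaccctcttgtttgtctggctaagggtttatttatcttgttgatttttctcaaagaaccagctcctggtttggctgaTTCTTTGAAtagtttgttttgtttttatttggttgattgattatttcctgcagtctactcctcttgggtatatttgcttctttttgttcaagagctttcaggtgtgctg
The CCAAT box (CCAAT, the letters bound by NF-Y, which acts beside SREBP-2 at sterol genes) occurred in 33.85% of all windows. It was in 9 of the 12 windows of the cholesterol genes that fell, and all 9 of the genes with a window in the table had at least 1 such window. Examples with the box in capitals are Cyp51, with CCAAT starting 29 bases before the start, and Idi1, with 2 boxes on the opposite strand starting 45 and 14 bases before it.
Cyp51 (chr5:4104698-4104947, minus strand): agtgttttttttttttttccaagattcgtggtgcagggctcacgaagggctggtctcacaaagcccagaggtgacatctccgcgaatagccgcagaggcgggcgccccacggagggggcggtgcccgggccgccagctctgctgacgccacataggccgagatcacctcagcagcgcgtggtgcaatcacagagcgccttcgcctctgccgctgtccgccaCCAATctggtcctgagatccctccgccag
Idi1 (chr13:8885356-8885605, plus strand): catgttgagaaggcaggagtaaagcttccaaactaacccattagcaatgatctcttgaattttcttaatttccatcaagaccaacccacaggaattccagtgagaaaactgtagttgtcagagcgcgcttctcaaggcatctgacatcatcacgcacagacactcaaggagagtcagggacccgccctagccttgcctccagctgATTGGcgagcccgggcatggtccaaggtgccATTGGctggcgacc
The NRF2 core TGACNNNGC occurred in 10.2% of all windows and in neither window of the NRF2 targets that rose. The SREBP core TCACNCCAC occurred in 1.05% of all windows and in 0 of the 12 windows of the cholesterol genes. TTCNNNGAA reads the same on both strands, and the other motifs were counted once per window. Of the genes called higher, 97 of 131 had a window in the table, and of those called lower, 126 of 176.

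The female libraries held 18741939 to 19195502 counts each. Liver identity was plain in all 6 CT female libraries: albumin (Alb), the main hepatocyte product, took 1545618 to 2149000 counts on HFC and 2189489 to 2420976 on CTD, and 12 marker genes of adipose tissue, pancreas and muscle had at most 8 counts in any of the 6. Library make-up differed with diet. The 21 Mup genes took 0.155%, 0.114% and 0.412% of counts in HFC animals 420, 510 and 512, against 2.46%, 1.53% and 1.84% in CTD animals 306, 308 and 318. Mitochondrial transcripts took 8.69%, 9.26% and 11.5% of counts on HFC, against 13.5%, 11.8% and 14% on CTD. The TMM scaling factors were 1.12, 1.14 and 1.0 on HFC and 0.842, 0.896 and 0.928 on CTD. With library totals in their place the median change of all tested genes was 0.30 on the log2 scale in place of 0.00, so every change below is relative to the TMM scale. Levels are given as CPM, counts scaled to the size of the library after TMM normalisation. They are not corrected for gene length, so levels are compared between animals and not between genes. The animal numbers of the 2 diets lie in separate ranges, so diet and any grouping that follows the numbers cannot be told apart. Myc itself was at 9.70, 5.46 and 4.38 CPM on HFC, against 5.44, 12 and 4.59 CPM on CTD, with overlapping groups (log2 -0.17, SE 0.56, edgeR adjusted p = 0.902).

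HFC changed 307 of the 13999 tested genes (2.19%) in control females by edgeR's quasi-likelihood test at an adjusted p under 0.05. Of these, 131 were higher on HFC (0.936% of tested genes) and 176 were lower (1.26%). In all 307 the 3 HFC animals lay on one side of the 3 CTD animals. Over all tested genes this held for 2000 upward (14.3%) and 1968 downward (14.1%), so a lack of overlap alone says little with 3 animals a group. The falls were larger than the rises: 24 genes fell by at least 16-fold and 2 rose by as much, while at least 2-fold changes numbered 99 down and 70 up. The number of calls changed with the animal left out. The count ranged from 72 without HFC animal 420, and again 72 without 510, to 417 without HFC animal 512, and was 85 without CTD animal 306, 118 without 308 and 246 without 318. Those called in each of the 6 reduced fits were 59 genes, 23 higher and 36 lower, and a call is described below as held in all 6 where the gene is among them. A reduced fit has fewer animals and less power, so a lost call does not by itself show that 1 animal carried the change. Gpnmb and Abcg8 were called in none of the 6, yet their log2 values stayed at 4.38 to 4.965 and 0.83 to 0.97. Other genes varied more, such as Mup19, at -8.625 to -6.20. With library totals the test called 1682 genes higher and 145 lower, so the balance of rises and falls rests on the scaling.

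**Figure D1:**
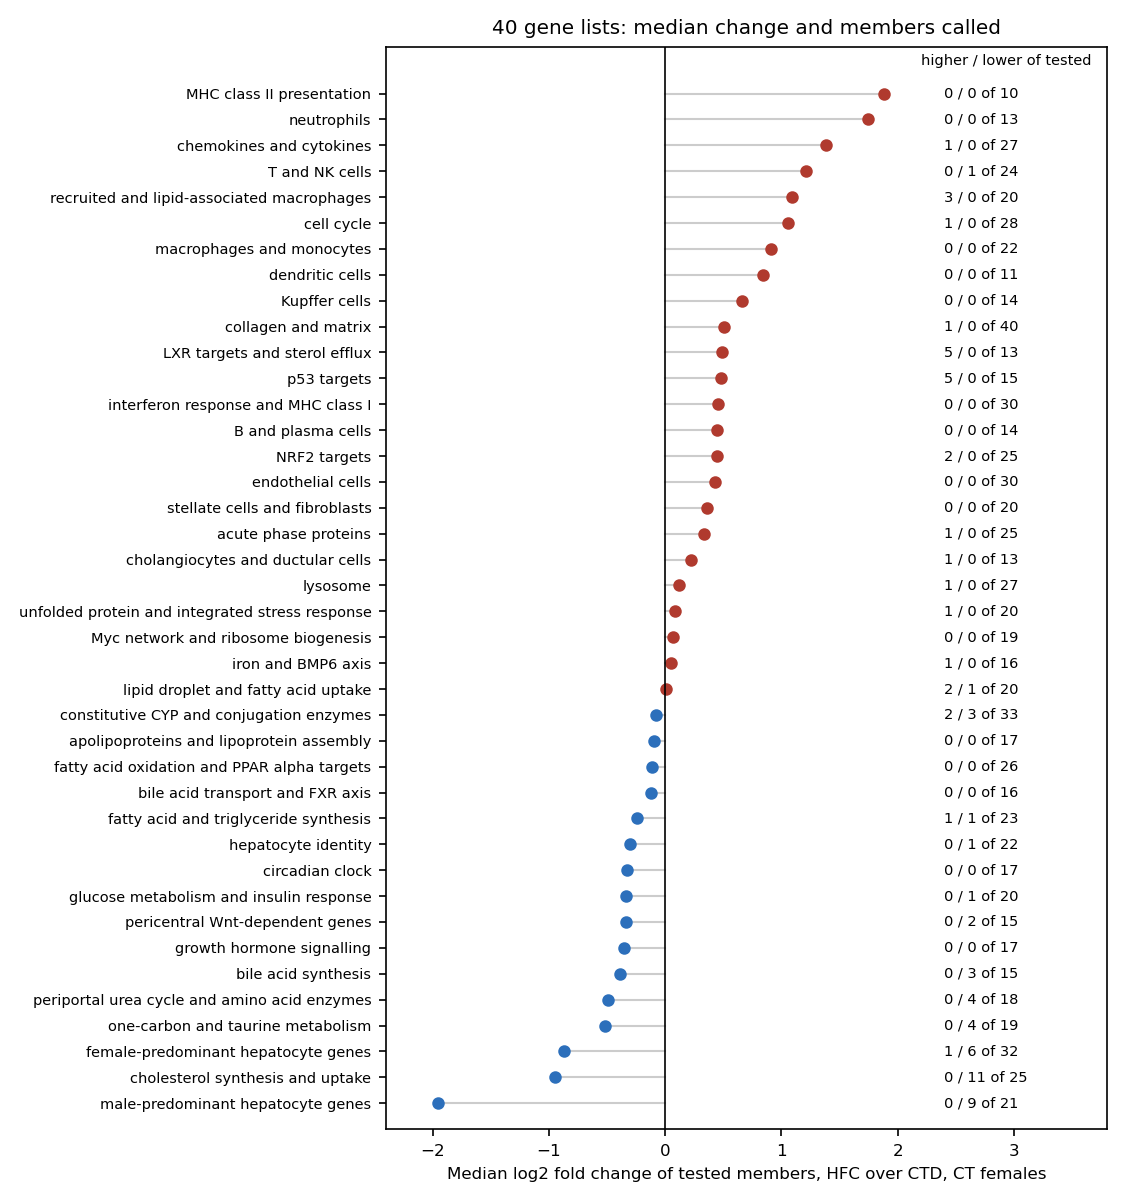
Median log2 fold change, HFC over CTD, of the tested members of 40 gene lists in CT females (points, red above 0 and blue below), with the number of members called higher and lower of those tested at the right. The most negative medians belong to the male-predominant, cholesterol synthesis and female-predominant lists, and the most positive to MHC class II and neutrophil genes, of which none was called. With library totals 5 of the lists below 0 turn positive, the bile acid transport, fatty acid synthesis, fatty acid oxidation, apolipoprotein and conjugation lists.

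Genes for the gatekeeping enzymes of bile acid synthesis fell. Cyp8b1 (chr9:121914356-121916305), the sterol 12-alpha-hydroxylase that sets the share of cholic acid, had 0.330, 0.185 and 0.854 CPM on HFC, against 116, 153 and 97.2 CPM on CTD. Every HFC animal was more than 100-fold below every CTD animal (log2 -8.09, SE 0.35, edgeR adjusted p = 5.33e-08), and the call held in all 6 reduced fits. Cyp7a1 (chr4:6265612-6275633), the rate-limiting 7-alpha-hydroxylase, had 10.9, 15.8 and 24.8 CPM on HFC, against 239, 264 and 272 CPM on CTD (log2 -3.91, SE 0.60, edgeR adjusted p = 0.0123). Its groups were far apart, yet the call was lost without HFC animal 420 or 510 (adjusted p up to 0.0818). Akr1d1, a reductase of the bile acid ring, had 92.3, 118 and 128 CPM on HFC, against 186, 209 and 184 CPM on CTD (log2 -0.77, SE 0.17, edgeR adjusted p = 0.0364), and held only without HFC animal 512. These were 3 of 15 genes of the list, none rose, and the list's median was -0.39. The 16 tested genes of bile acid transport and the FXR axis gave no call. Of these, the uptake carrier Slc10a1 had 392, 419 and 461 CPM on HFC, against 722, 889 and 845 CPM on CTD, with an edgeR adjusted p of 0.104. Slc51b, a subunit of the basolateral exporter, had 3.48, 2.73 and 2.88 CPM on HFC, against 1.38, 0.117 and 0.964 CPM on CTD, with an edgeR adjusted p of 0.109. In both genes the diets did not overlap.

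Genes of cholesterol synthesis fell on HFC. All 25 genes of the synthesis and uptake list had a negative log2 value, 21 of them with every HFC animal below every CTD animal. Over all tested genes 14.1% lay lower without overlap. Of the 25, 11 were called lower, 0 higher and 14 not at all (median -0.95, against 0.00 over all tested genes). The isomerase Idi1 (chr13:8885501-8892451) had 11.8, 11.5 and 8.91 CPM on HFC, against 38.2, 81.4 and 64.8 CPM on CTD (log2 -2.52, SE 0.34, edgeR adjusted p = 0.00412). Nsdhl, a sterol dehydrogenase, had 9.09, 9.03 and 8.91 CPM on HFC, against 25.5, 55.1 and 35.8 CPM on CTD (log2 -2.11, SE 0.24, edgeR adjusted p = 0.00131). The HFC animals were nearly equal in these genes and the CTD animals were spread, with CTD animal 306 the lowest of its group. Cyp51, the lanosterol demethylase, had 15.3, 14 and 13.7 CPM on HFC, against 37.2, 75.5 and 60.0 CPM on CTD (log2 -2.01, SE 0.23, edgeR adjusted p = 0.00131). Tm7sf2, a sterol reductase, had 17.8, 16.5 and 28.5 CPM on HFC, against 65.0, 90.8 and 60.7 CPM on CTD (log2 -1.79, SE 0.23, edgeR adjusted p = 0.00193). These 4 calls held in all 6 reduced fits.

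Squalene epoxidase, Sqle, had 8.57, 5.65 and 6.08 CPM on HFC, against 14.9, 33.6 and 26.6 CPM on CTD (log2 -1.89, SE 0.34, edgeR adjusted p = 0.0194), and lost its call without CTD animal 308 or HFC animal 420 or 510 (adjusted p up to 0.105). Another 6 genes were called, which the naming rule did not pick: Msmo1 (log2 -2.3), Fdps (log2 -2.04), Mvd (log2 -1.65), Pmvk (log2 -1.45), Dhcr7 (log2 -1.08) and Sc5d (log2 -0.93), all enzymes of the same pathway, chosen once their values were known. Each of these 6 lost its call in 3 to 5 of the 6 reduced fits. None of the called genes of the list acts before Pmvk in the pathway. The number of list members called lower was 4 without HFC animal 420 or 510, 5 without CTD animal 308, 8 without HFC animal 512 and 9 without CTD animal 306 or 318.

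LXR targets went the other way. Of 13 tested genes of sterol efflux and LXR control, 5 rose and none fell (median 0.49). The pair Abcg5 and Abcg8 encodes the transporter that secretes sterol into bile. Abcg5 (chr17:84658234-84683011) had 233, 266 and 294 CPM on HFC, against 149, 125 and 134 CPM on CTD (log2 0.96, SE 0.15, edgeR adjusted p = 0.00657). Its partner Abcg8 had 201, 238 and 243 CPM on HFC, against 119, 135 and 113 CPM on CTD (log2 0.89, SE 0.21, edgeR adjusted p = 0.0486). Both rose by nearly the same factor, but the call of Abcg5 held in all 6 reduced fits and that of Abcg8 in none (adjusted p up to 0.187). Soat2, which makes cholesteryl esters, had 49.2, 47.2 and 53.5 CPM on HFC, against 25.0, 28.9 and 27.2 CPM on CTD (log2 0.89, SE 0.11, edgeR adjusted p = 0.00193, held in all 6). The cellular exporter Abcg1 had 24.8, 24.6 and 15.2 CPM on HFC, against 5.50, 4.67 and 9.36 CPM on CTD (log2 1.72, SE 0.37, edgeR adjusted p = 0.0401). Lpl, the lipase that frees fatty acid from lipoproteins and is low in adult hepatocytes, had 118, 122 and 88.7 CPM on HFC, against 13.1, 15.9 and 24.8 CPM on CTD (log2 2.61, SE 0.42, edgeR adjusted p = 0.0140). For Abcg1 and Lpl the HFC animal nearest to CTD was 512 and the CTD animal nearest to HFC was 318. Both lost their calls without 306, 308, 420 or 510 (adjusted p up to 0.183 for Abcg1 and 0.0732 for Lpl). Macrophages also express Abcg1 and Lpl, and the macrophage and monocyte list, as a mean of log2(CPM + 1), stood at 4.61, 4.78 and 3.98 on HFC, against 3.09, 3.12 and 4.26 on CTD. On that list CTD animal 318 lay above HFC animal 512, and its part in these results was not tested.

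**Figure D2:**
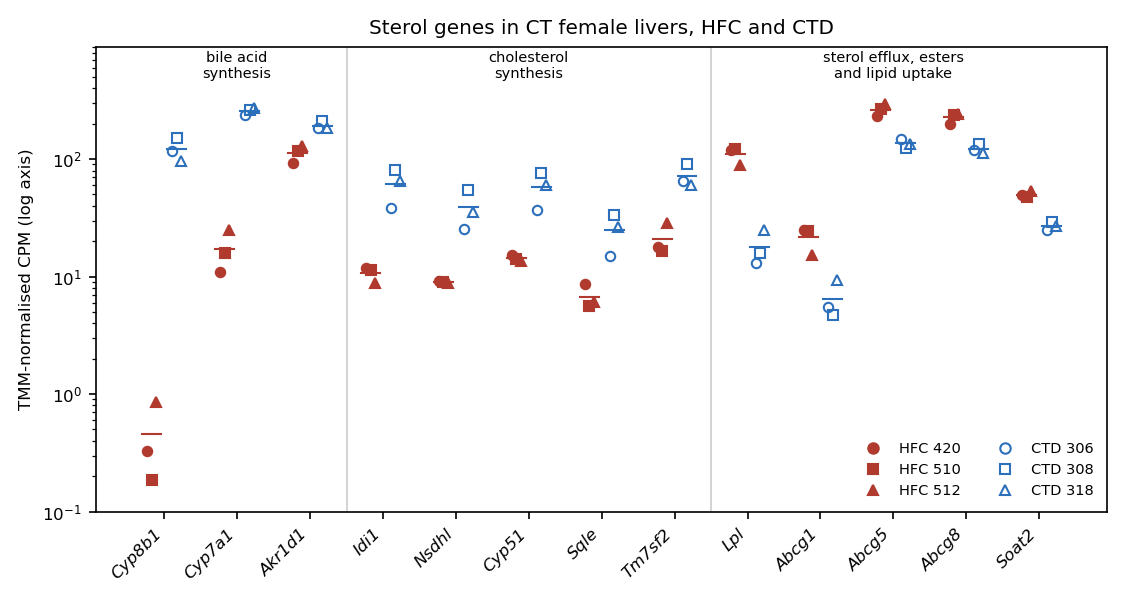
TMM-normalised CPM on a log axis in each CT female liver, with HFC (filled red) left of CTD (open blue) for each gene, symbols for the animals and a bar at the group mean. Cyp8b1 lies below 1 CPM in all 3 HFC livers and above 90 CPM in all 3 CTD livers, and none of the 13 genes shown has overlapping groups.

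Female-predominant genes were among those that fell most. Cyp3a41a (chr5:145694049-145720136) had 0.753, 2.22 and 5.76 CPM on HFC, against 1936, 1715 and 1164 CPM on CTD (log2 -9.12, SE 0.65, edgeR adjusted p = 9.96e-05). Cyp3a44 (chr5:145773983-145805874) had 0.80, 1.06 and 0.854 CPM on HFC, against 190, 63.6 and 215 CPM on CTD (log2 -7.42, SE 0.64, edgeR adjusted p = 0.000648). Both encode P450 enzymes of steroid and drug oxidation. No HFC animal was within 10-fold of any CTD animal in either gene. Cyp3a16 (chr5:145436309-145469723) had 0.0942, 0.139 and 0.587 CPM on HFC, against 19.9, 14.8 and 9.41 CPM on CTD (log2 -5.77, SE 0.79, edgeR adjusted p = 0.00589), a call lost only without HFC animal 510 (adjusted p = 0.0526). Cyp3a41b had 0 counts in all 3 HFC libraries and 27.1, 20.2 and 8.68 CPM on CTD. Against a floor of 3 counts over the HFC group it was at least 376.5-fold lower on HFC, and its edgeR adjusted p of 0.0270 was lost without 306, 308, 420 or 510 (up to 0.0971). Of 9 Cyp3a genes in the table, 8 were tested, these 4 fell and none rose, although 2 rose when scaled by library totals instead.

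The sulfotransferase gene Sult3a1 (chr10:33857721-33879532) had 0.330, 0.417 and 0.587 CPM on HFC, against 51.0, 54.0 and 60.7 CPM on CTD (log2 -6.95, SE 0.26, edgeR adjusted p = 1.3e-08). The 3 animals of each diet were close together. Its neighbour Sult3a2 had 0, 0.0463 and 0 CPM on HFC, against 1.75, 2.51 and 0.737 CPM on CTD (edgeR adjusted p = 0.00193). The calls of Cyp3a41a, Cyp3a44, Sult3a1 and Sult3a2 held in all 6 reduced fits. On the whole list of female-predominant genes, 32 were tested, 6 fell, 1 rose and 25 had a negative log2 value, with a median of -0.87. The 1 that rose was Prom1, a membrane protein that also marks bile duct cells, at 7.49, 11 and 12.6 CPM on HFC, against 1.5, 0.876 and 1.08 CPM on CTD (log2 3.17, SE 0.37, edgeR adjusted p = 0.00143, held in all 6). Prom1 showed no female excess in these data, as CT males on CTD had 1.19, 1.49, 1.01 and 1.18 CPM. The number of the list that fell was 10 without HFC animal 512 and 4 to 6 without any other animal.

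Most male-predominant genes that fell in these females were Mup genes. Of 21 tested male-predominant genes 9 fell and 0 rose, with a median of -1.95. Of these, 8 were Mup genes, and across the whole Mup family 12 of 19 tested genes fell and 0 rose. Mup19 (chr4:61778324-61782269) had 0.753, 3.98 and 21.4 CPM on HFC, against 1369, 721 and 695 CPM on CTD (log2 -6.75, SE 1.05, edgeR adjusted p = 0.0140). Mup17 had 0.848, 1.25 and 6.24 CPM on HFC, against 224, 118 and 75.5 CPM on CTD (log2 -5.68, SE 0.86, edgeR adjusted p = 0.0123). Mup12 had 0.235, 0.0463 and 0.320 CPM on HFC, against 8.81, 8.35 and 5.67 CPM on CTD (log2 -5.23, SE 0.63, edgeR adjusted p = 0.00162). In each gene HFC animal 512 was the highest of its group and the groups stayed far apart. Mup12 held in all 6 reduced fits, Mup19 lost its call without 306 or 510 (adjusted p up to 0.0818) and Mup17 without 420 or 510 (up to 0.0749). Mup transcripts are near-copies, and 78.1% of the 50-base stretches of Mup17, 85.4% of those of Mup12 and all of those of Mup19 recur in another gene, so the split between members is uncertain. The 1 tested member with a positive value was Mup20, named after its values were seen, at 308, 178 and 811 CPM on HFC, against 164, 116 and 177 CPM on CTD (edgeR adjusted p = 0.285). Susd4, the remaining male-predominant gene that fell, had 0.518, 0.231 and 0.374 CPM on HFC, against 2.69, 3.62 and 4.08 CPM on CTD (log2 -3.19, SE 0.52, edgeR adjusted p = 0.00710), and lost its call without HFC animal 510 (adjusted p = 0.0566). The number of the list that fell was 2 without 510, 4 without 306 or 420, and 8 or 9 without the others.

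The list of growth hormone signalling and related genes gave no call among 17 tested, with a median of -0.36. Igfbp1, which encodes a binding protein of IGF-1, had 117, 86.3 and 87.4 CPM on HFC, against 241, 330 and 212 CPM on CTD (edgeR adjusted p = 0.0549). Onecut1, a transcription factor of the hepatocyte, had 6.12, 7.36 and 5.50 CPM on HFC, against 18.8, 24.3 and 11 CPM on CTD (edgeR adjusted p = 0.0712). A pair of further members were named after their values were seen: the receptor gene Ghr had 224, 237 and 279 CPM on HFC, against 424, 419 and 432 CPM on CTD (edgeR adjusted p = 0.0728), and Stat5b had 34.0, 36.2 and 37.4 CPM on HFC, against 30.2, 37.3 and 31.5 CPM on CTD (adjusted p = 0.718).

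A wider set of sex-biased genes was taken from animals outside the comparison, by a log2 difference of at least 2 and an edgeR adjusted p under 0.05 between KO females and KO males on CTD. The 2 sexes come from separate tables, so sex and table cannot be told apart in this choice. The genes were chosen on CTD alone, so the female-biased ones are high in females on that diet by choice. Of 159 female-biased genes 142 were tested in the CT females, where 18 fell (12.7%) and 2 rose (1.41%), with a median of -0.49. Over all tested genes 1.26% fell and 0.936% rose. In CT males 152 of the 159 were tested, and 27 rose and 11 fell (median 0.47). Over all genes tested in males 7.25% rose and 5.31% fell. These genes are low in males by the way they were chosen. Some, such as Cyp3a41b and Cyp3a16, had 0 CPM in every CT male on CTD. The male median thus includes folds near the floor and is not a like measure beside the female one. Of 91 male-biased genes only 44 were tested in CT females, where 7 fell (15.9%) and 6 rose (13.6%), with a median of -0.01. In CT males all 91 were tested, and 26 fell and 4 rose, with a median of -0.54. Among the 7 that fell were Mup17, Mup12, Mup8, Mup1, Mup7 and Susd4, and among the 6 that rose were Srd5a1, a steroid reductase, and Nox4, an NADPH oxidase.

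**Figure D3:**
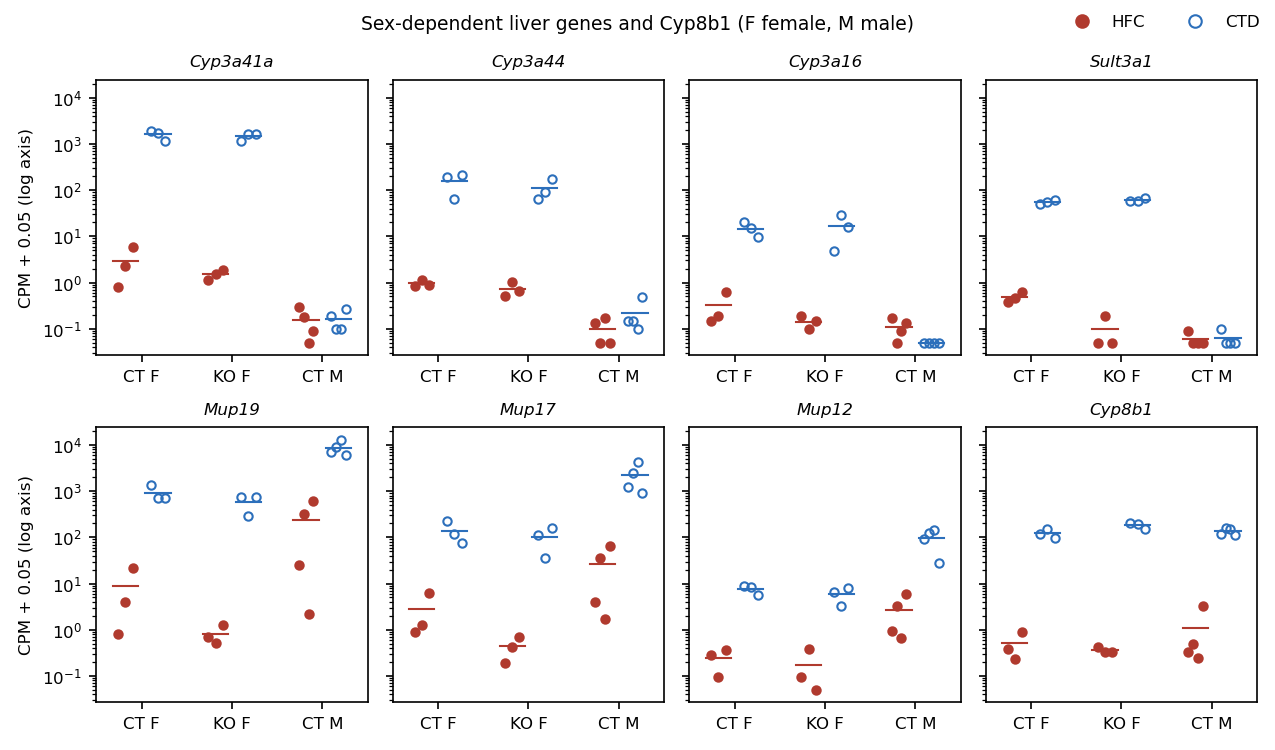
CPM plus 0.05 on a log axis for 7 sex-dependent genes and Cyp8b1 in CT females (CT F), KO females (KO F) and CT males (CT M), with each point an animal, HFC (filled red) left of CTD (open blue) and a bar at the mean. The 4 genes in the upper row are high only in the CTD livers of both female genotypes, while the Mup genes and Cyp8b1 are lower on HFC in all 3 pairs.

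Some amino acid and one-carbon enzymes of the hepatocyte fell. In the urea cycle and amino acid list 4 of 18 tested genes fell and none rose (median -0.49, and -0.21 with library totals). The transaminase gene Got1 had 57.9, 85.8 and 138 CPM on HFC, against 387, 366 and 204 CPM on CTD (log2 -1.76, SE 0.37, edgeR adjusted p = 0.0333). Asl, a lyase of the urea cycle, had 324, 303 and 514 CPM on HFC, against 899, 858 and 593 CPM on CTD (log2 -1.04, SE 0.22, edgeR adjusted p = 0.0287). In both genes HFC animal 512 and CTD animal 318 were the nearest to each other. The ornithine carrier Slc25a15 (log2 -0.95) and the glutaminase Gls2 (log2 -0.93) made up the 4. No member of the list was called without 306, 308, 420 or 510, and 5 were without 318 or 512. In the one-carbon and taurine list 4 of 19 fell and none rose (median -0.51, and -0.22 with library totals). Cth, which makes cysteine, had 61.5, 82.0 and 99.4 CPM on HFC, against 268, 174 and 192 CPM on CTD (log2 -1.38, SE 0.20, edgeR adjusted p = 0.00318, held in all 6). Gnmt, which consumes S-adenosylmethionine, had 409, 505 and 622 CPM on HFC, against 1579, 1957 and 1226 CPM on CTD (log2 -1.63, SE 0.36, edgeR adjusted p = 0.0401, held only without 318). Nnmt (log2 -2.14) and Ahcy (log2 -0.90) were the other 2, and 68.7% of the 50-base stretches of Ahcy recur in another gene. The number that fell was 1 without 306, 308, 420 or 510, 4 without 512 and 6 without 318.

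Single genes fell in other hepatocyte lists. Oat, an ornithine transaminase of the pericentral zone, had 128, 195 and 257 CPM on HFC, against 831, 690 and 450 CPM on CTD (log2 -1.77, SE 0.29, edgeR adjusted p = 0.00732), and with Cyp7a1 made 2 of 15 pericentral genes that fell, with none rising. Tat, a tyrosine-degrading enzyme, had 595, 563 and 1058 CPM on HFC, against 2279, 2331 and 1818 CPM on CTD (log2 -1.54, SE 0.30, edgeR adjusted p = 0.0224), and was the 1 of 22 hepatocyte identity genes that fell (median -0.30, and -0.0073 with library totals). G6pc, the last enzyme of glucose release, had 266, 126 and 213 CPM on HFC, against 682, 575 and 493 CPM on CTD (log2 -1.53, SE 0.32, edgeR adjusted p = 0.0288), and was the 1 of 20 genes of glucose metabolism that fell. Oat lost its call without HFC animal 510 alone (adjusted p = 0.0508). Tat lost it without 306, 308, 420 or 510 (up to 0.131), and G6pc without any animal but 318 (up to 0.127). Conjugation enzymes split: among 33 genes of that list, Sult1b1 (log2 -1.16), Ugt2b1 (log2 -1.03) and Ugt2a3 (log2 -0.87) fell, and Cyp2c55 (log2 2.35) and Ces2a (log2 0.80) rose. Fatty acid synthesis, with 23 genes, gave 1 rise, of the desaturase Scd2 (log2 1.29, edgeR adjusted p = 0.0396), and 1 fall, of the acetyl-CoA synthetase Acss2 (log2 -1.64, edgeR adjusted p = 0.0433). Acss2 is an SREBP target, and it had 44.7, 44.4 and 46.2 CPM on HFC, against 97.0, 231 and 91.9 CPM on CTD, where animal 308 was the highest. Sult1b1 held in all 6 reduced fits, Ugt2b1 was lost without 420 or 510, and Ugt2a3 without 306, 318, 420 or 510. Cyp2c55 and Ces2a held in none, Scd2 only without 318 or 512, and Acss2 only without 318.

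The falls with the smallest p-values included genes outside these lists. Mmd2, a membrane protein of the progestin and adiponectin receptor family, had 6.12, 10.7 and 6.19 CPM on HFC, against 68.8, 62.9 and 66.9 CPM on CTD (log2 -3.10, SE 0.33, edgeR adjusted p = 0.00131). Dct, best known as an enzyme of melanin synthesis, had 0.612, 0.231 and 0.480 CPM on HFC, against 8.18, 8.35 and 4.14 CPM on CTD (log2 -3.95, SE 0.41, edgeR adjusted p = 0.000637). Slc43a1, an amino acid carrier, had 2.54, 3.89 and 3.95 CPM on HFC, against 20.1, 18.2 and 11.4 CPM on CTD (log2 -2.26, SE 0.24, edgeR adjusted p = 0.000662). No HFC animal came near a CTD animal in these genes, and all 3 calls held in the 6 reduced fits. Mmd2 was also among the female-biased genes that fell.

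Lipid storage and oxidation gave few calls. Of 20 lipid droplet and uptake genes, Plin3 (log2 0.56, edgeR adjusted p = 0.0166) and Fabp2 (log2 1.02, edgeR adjusted p = 0.0351) rose and Fitm1 (log2 -1.66, edgeR adjusted p = 0.0274) fell. The call was lost for Plin3 without 306, 420 or 510, for Fabp2 without any animal but 510, and for Fitm1 without any but 318. Plin3 coats lipid droplets, Fabp2 binds fatty acids and Fitm1 helps droplets form. The 26 genes of fatty acid oxidation and PPAR alpha gave no call. The hormone gene Fgf21 had 5.70, 2.87 and 4.48 CPM on HFC, against 1.44, 1.46 and 1.98 CPM on CTD (edgeR adjusted p = 0.0812), and Ehhadh, a peroxisomal oxidation enzyme, had 465, 530 and 467 CPM on HFC, against 328, 402 and 367 CPM on CTD (adjusted p = 0.164). The 17 apolipoprotein genes gave none either. The 2 of smallest p were Apom, an apolipoprotein of HDL (edgeR adjusted p = 0.120), and Scarb1, the HDL receptor (adjusted p = 0.122). The 13 protein genes of mitochondrial DNA all had negative values (median -0.74 with TMM factors and -0.47 with library totals), and 3 of them fell, among them mt-Co1 (log2 -0.88, edgeR adjusted p = 0.0172), a subunit of cytochrome oxidase. That call was lost without 306, 420 or 510 (adjusted p up to 0.104).

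Among the largest rises were enzymes of detoxication and steroid handling. Ephx1 (chr1:180976210-181020904), the microsomal epoxide hydrolase and an NRF2 target, had 547, 566 and 568 CPM on HFC, against 118, 132 and 155 CPM on CTD (log2 2.06, SE 0.21, edgeR adjusted p = 0.000637). Hsd17b6 (chr10:127990936-128007611), a steroid dehydrogenase, had 692, 726 and 748 CPM on HFC, against 185, 104 and 216 CPM on CTD (log2 2.10, SE 0.28, edgeR adjusted p = 0.00213). Both were nearly equal in the 3 HFC animals. Slc13a5, the citrate carrier, had 6.31, 7.22 and 7.10 CPM on HFC, against 1.87, 0.642 and 2.04 CPM on CTD (log2 2.17, SE 0.32, edgeR adjusted p = 0.00350). Adam11, of the metalloprotease family, had 52.8, 81.9 and 78.0 CPM on HFC, against 19.1, 11 and 9.64 CPM on CTD (log2 2.42, SE 0.28, edgeR adjusted p = 0.00162). These 4 calls, with those of the kinase Wnk4 (log2 1.90) and of Chac1, a glutathione-degrading enzyme (log2 1.42), held in all 6 reduced fits. Chac1 was the 1 of 20 genes of the unfolded protein and integrated stress responses that was called. Akr1b7, an aldo-keto reductase, had 8.15, 12.3 and 10.8 CPM on HFC, against 2.25, 3.10 and 1.81 CPM on CTD (edgeR adjusted p = 0.0394), and was called in none of the 6 (up to 0.175). Of 25 NRF2 targets 2 rose, Ephx1 and Aox1 (log2 0.92, edgeR adjusted p = 0.0222), and 22 had a positive log2 value (median 0.45). Aox1 lost its call without 306, 308, 420 or 510 (up to 0.119). Among glutathione transferases, 2 had high HFC values and no call. Gstm1 had 2467, 2985 and 4012 CPM on HFC, against 1181, 1345 and 793 CPM on CTD (edgeR adjusted p = 0.0622), and Gsta1 had 13.0, 17.1 and 11.1 CPM on HFC, against 1.06, 1.11 and 1.25 CPM on CTD (adjusted p = 0.140). Both were named after their values were seen.

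Targets of p53, the factor that answers DNA damage and stress, gave 5 rises among 15 tested and 0 falls (median 0.48). Cdkn1a, which encodes the cell cycle inhibitor p21, had 12.6, 13.1 and 13.0 CPM on HFC, against 1.38, 2.86 and 2.5 CPM on CTD (log2 2.51, SE 0.54, edgeR adjusted p = 0.0435). Zmat3, an RNA-binding protein gene, had 10.6, 8.01 and 7.52 CPM on HFC, against 2.69, 4.38 and 3.86 CPM on CTD (log2 1.25, SE 0.21, edgeR adjusted p = 0.00926). The HFC animals were close together in Cdkn1a, and no group overlapped in either gene. The receptor gene Eda2r (log2 2.78, edgeR adjusted p = 0.0140), Phlda3 (log2 1.74, adjusted p = 0.0415) and the nuclease gene Aen (log2 0.80, adjusted p = 0.0137) also rose. The number that rose was 0 without HFC animal 420, 1 without 308 or 510, 2 without 306, 3 without 318 and 4 without 512. Cdkn1a was called in none of these fits (adjusted p up to 0.190), Zmat3 was lost only without 420, Eda2r without 308, 420 or 510, Aen without 306, 308, 420 or 510, and Phlda3 without any animal but 512. In CT males Cdkn1a had a log2 value of 0.52 (edgeR adjusted p = 0.593), and the difference between the sexes was 1.97 (adjusted p = 0.710).

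Immune genes mostly had positive log2 values and few passed the test. Positive log2 values were found in all 10 tested MHC class II genes (median 1.88), all 13 neutrophil genes (1.74), all 22 macrophage and monocyte genes (0.91), all 14 Kupffer cell genes (0.66), 23 of 24 T and NK cell genes (1.21) and 24 of 27 chemokine and cytokine genes (1.38). Calls among these were Cxcl2, a neutrophil-attracting chemokine, upward (log2 3.58, edgeR adjusted p = 0.0476) and Zap70, a T cell kinase, downward (log2 -1.53, edgeR adjusted p = 0.00487, held in all 6). Cxcl2 was near the floor, at 2.17, 2.22 and 0.747 CPM on HFC, against 0.125, 0.175 and 0.113 CPM on CTD, from 7 counts. Zap70 had 2.45, 3.29 and 3.63 CPM on HFC, against 11.25, 8.53 and 7.26 CPM on CTD. The 24 T and NK genes together summed to 25.4, 23.65 and 29.8 CPM on CTD. Zap70 alone among them had a negative value, and its cell source was not tested. The call of Cxcl2 was lost without any animal but 512 (up to 0.190). Unadjusted p was under 0.05 for 8 of the class II genes, 10 of the neutrophil genes, 5 of the macrophage genes, 2 of the Kupffer genes, 14 of the T and NK genes and 17 of the chemokine genes. Over all tested genes it was under 0.05 for 2842 of 13999. The macrophage count is near that share and the Kupffer count is below it. In bulk tissue, more cells of a type and more RNA per cell cannot be told apart.

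In many of these genes 1 animal of a diet lay near the other diet. The class II gene H2-Eb1 had 81.0 and 104 CPM in HFC animals 420 and 510 but 17.5 CPM in 512, against 13.6, 15.4 and 14.8 CPM on CTD (log2 2.21, SE 0.72, edgeR adjusted p = 0.136). Cxcl10, an interferon-induced chemokine, had 24.3, 18 and 6.03 CPM on HFC, against 3.06, 1.69 and 2.33 CPM on CTD (adjusted p = 0.126 by edgeR). As a mean of log2(CPM + 1), the class II list stood at 4.43, 4.79 and 3.03 in HFC animals 420, 510 and 512, against 2.74, 2.78 and 3.06 in CTD animals 306, 308 and 318. The Kupffer list stood at 5.88, 5.95 and 5.48 on HFC, against 4.34, 4.60 and 5.86 on CTD. HFC animal 512 was thus within the CTD range for class II, and CTD animal 318 within the HFC range for Kupffer genes. Across called genes the same pair lay nearest to the other diet: 512 was the HFC animal closest to CTD in 71 of 131 genes that rose and 112 of 176 that fell, and 318 the CTD animal closest to HFC in 59 and 92. HFC animal 512 was also the lowest of its group in genes of other immune lists. Itgax, an integrin of dendritic cells and macrophages, had 6.97, 9.12 and 2.72 CPM on HFC, against 0.875, 1.46 and 1.3 CPM on CTD (edgeR adjusted p = 0.138), and Mpo, the peroxidase of neutrophil granules, had 4.38, 2.41 and 0.267 CPM on HFC, against 0.375, 0.467 and 0.680 CPM on CTD (adjusted p = 0.130 by edgeR). Only in Mpo did the diets overlap, through animal 512. Without 512 the genes called higher were 4 chemokine genes, Cxcl2 included, 3 neutrophil genes and 2 T and NK genes, and no class II, macrophage or Kupffer gene.

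**Figure D4:**
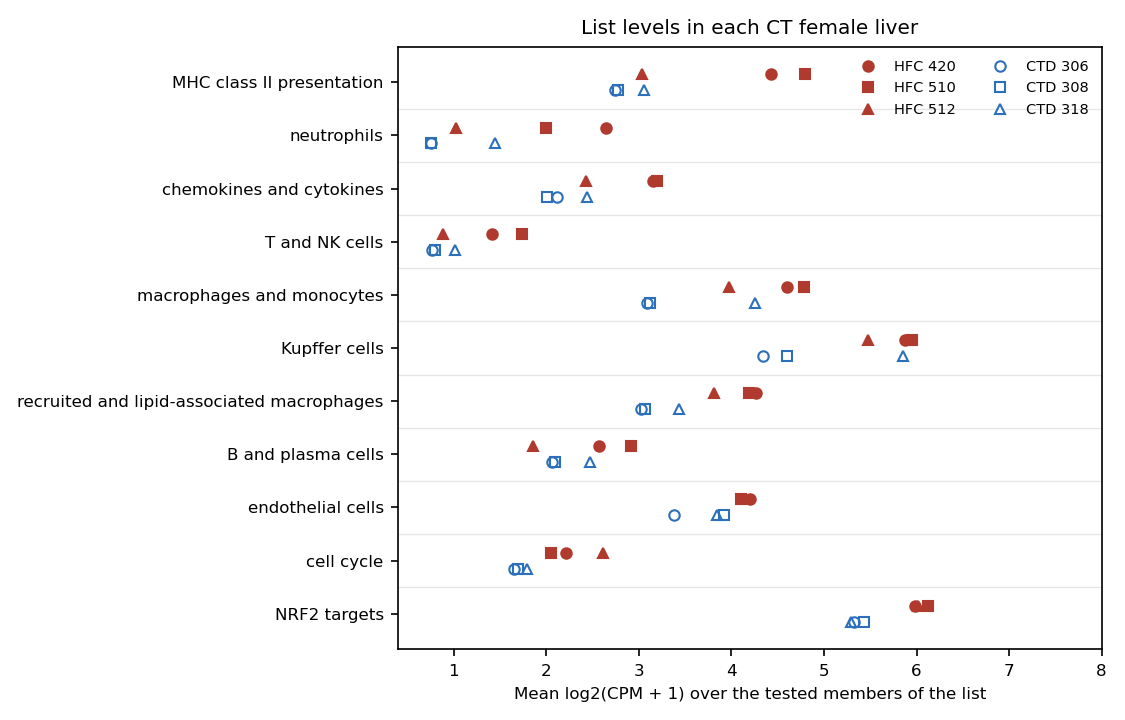
Mean log2(CPM + 1) over the tested members of 11 lists in each CT female liver, with HFC animals (filled red) above CTD animals (open blue) and triangles for HFC animal 512 and CTD animal 318. On the class II list 512 lies among the CTD animals at 3.03, and on the Kupffer list 318 lies among the HFC animals at 5.86, whereas on the NRF2 and cell cycle lists the diets do not overlap.

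Genes of lipid-laden macrophages included a few that passed. Of 20 genes of recruited and lipid-associated macrophages 3 rose, 0 fell and 18 had a positive log2 value (median 1.09). Their mean log2(CPM + 1) was 4.27, 4.19 and 3.81 on HFC, against 3.02, 3.07 and 3.43 on CTD, without overlap. Gpnmb (chr6:49036546-49070929), a glycoprotein of foam cells and lysosomes, had 12.5, 12.8 and 12.2 CPM on HFC, against 0.437, 0.350 and 0.737 CPM on CTD (log2 4.59, SE 0.96, edgeR adjusted p = 0.0416). The tetraspanin gene Cd9 had 25.9, 25.0 and 22.0 CPM on HFC, against 10.8, 11.1 and 13.9 CPM on CTD (log2 1.03, SE 0.21, edgeR adjusted p = 0.0274), and Lpl was the other. In these 3 genes HFC animal 512 was level with or near 420 and 510. Gpnmb lost its call in each of the 6 reduced fits (adjusted p up to 0.189), and Cd9 without 306, 308, 420 or 510 (up to 0.138). None of the list was called without any of those 4, 2 were without 318 and 4 without 512. Part of these genes is also expressed by other liver cells, and their source was not tested.

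Endothelial, stellate and matrix genes mostly had positive log2 values, and of these lists 1 gene passed. Among 30 endothelial genes 29 had a positive log2 value, 17 of them with no overlap, and none was called (median 0.43). Over all tested genes 14.3% lay higher without overlap. With 1 animal left out the endothelial median ranged from 0.31, without CTD animal 306, to 0.57, without CTD animal 308. Vwf, the clotting protein of vessel walls, had 3.30, 4.17 and 5.28 CPM on HFC, against 1.87, 3.10 and 1.93 CPM on CTD (edgeR adjusted p = 0.0839). Fcgr2b, an Fc receptor of sinusoidal cells, had 50.5, 48.6 and 46.5 CPM on HFC, against 27.5, 39.9 and 36.2 CPM on CTD (adjusted p = 0.0909 by edgeR). The median in CT males was -0.05, and no endothelial gene was called in them. None of 20 stellate cell genes passed (median 0.36). Of 40 collagen and matrix genes Col5a3, a minor fibrillar collagen, was the 1 that rose, at 25.7, 22.0 and 26.2 CPM on HFC, against 14, 10.8 and 10.6 CPM on CTD (log2 1.06, SE 0.24, edgeR adjusted p = 0.0424). Cell cycle genes had a median of 1.06 over 28 tested, 19 of them with every HFC animal above every CTD animal, against the same 14.3%. The 1 that passed was E2f1, a factor of S-phase entry, at 3.30, 2.69 and 5.28 CPM on HFC, against 1.12, 1.58 and 1.93 CPM on CTD (log2 1.27, SE 0.30, edgeR adjusted p = 0.0496). Col5a3 and E2f1 lost their calls in every reduced fit (adjusted p up to 0.160 and 0.211). Among the other lists, Lbp, which binds bacterial endotoxin, was the 1 of 25 acute phase genes that rose (log2 0.91, edgeR adjusted p = 0.0254), and Slc11a2, an iron carrier, the 1 of 16 iron genes (log2 0.82, edgeR adjusted p = 0.0221). Lbp lost its call without any animal but 512, and Slc11a2 without 306, 308, 420 or 510. No gene was called among 30 interferon genes (median 0.46), 14 B cell genes (0.45), 11 dendritic cell genes (0.84), 17 clock genes (-0.33) and 19 genes of the Myc network (0.07). Prom1 and Gpnmb, given above, were the only members called of the 13 bile duct genes (median 0.22) and the 27 lysosome genes (0.12).

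The diet response of the control females was then set against that of KO females. The animals of the 2 comparisons are different, but they were fitted together. Of the 131 genes that rose in CT females 106 (80.9%) were also called higher in KO females, which is 19.2% of the 551 genes that rose there (3.94% of tested genes). Of the 176 that fell 149 (84.7%) were also called lower, 22.9% of the 651 that fell in KO females (4.65%). No gene was called in opposite directions. The difference between the genotypes was tested itself, and 0 of 13999 genes passed (0%). At an unadjusted p under 0.05, 546 did by edgeR, 536 by DESeq2 and 531 by limma with voom, and neither of the other 2 tools called a gene after adjustment. Each of these counts is below 0.05 of the 13999 tested genes, the share that this threshold passes on average when no gene differs. The edgeR count depended on the animals, however. It was 323 of 14217 without KO CTD animal 309, 750 of 14256 without KO CTD 307, 829 of 14259 without CT CTD 308 and 1517 of 14248 without KO HFC 413. Sult3a1 came nearest: its log2 value was -6.95 in CT females and -10.17 in KO females, a CT minus KO difference of 3.22 (unadjusted p = 0.00027, edgeR adjusted p = 0.991). The KO females on HFC held 0, 0.142 and 0 CPM of it, so the size of that difference rests on a few reads.

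The same genes were then looked up in CT males, whose calls come from the fit of all 28 libraries. In males, 90 of the 131 genes that rose in CT females (68.7%) also rose, among 1065 rises there (7.25% of 14685 tested genes), and 110 of the 176 that fell (62.5%) also fell, among 780 falls (5.31%). A difference between the sexes passed for 1 gene (0.00681%), Car2, which encodes a carbonic anhydrase. Car2 (chr3:14886273-14900770) had 9.75, 7.96 and 8.54 CPM in CT females on HFC, against 18.8, 16.9 and 18.9 CPM on CTD (log2 -1.06, SE 0.15, edgeR adjusted p = 0.00280). CT males had 6.06, 6.00, 6.96 and 5.74 CPM on HFC, against 5.77, 5.78, 4.60 and 5.18 CPM on CTD (log2 0.21, edgeR adjusted p = 0.239). The female minus male difference was -1.30 (SE 0.18, adjusted p = 0.00127). In KO females Car2 had a log2 value of -1.07, with 7.67, 7.20 and 9.61 CPM on HFC, against 15, 19.6 and 16.8 CPM on CTD. The 2 sexes come from separate tables, so sex and table cannot be told apart. Cyp3a41a, Cyp3a44, Cyp3a16 and Sult3a1 were at 0 to 0.436 CPM in every CT male on either diet, so no diet fold is given for males. For Cyp3a41a the fitted difference between the sexes did not pass (edgeR adjusted p = 0.0543). Cyp8b1 fell in males too, at 0.287, 0.432, 0.195 and 3.30 CPM on HFC, against 119, 160, 148 and 115 CPM on CTD (log2 -7.00, edgeR adjusted p = 4.37e-07).

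**Figure D5:**
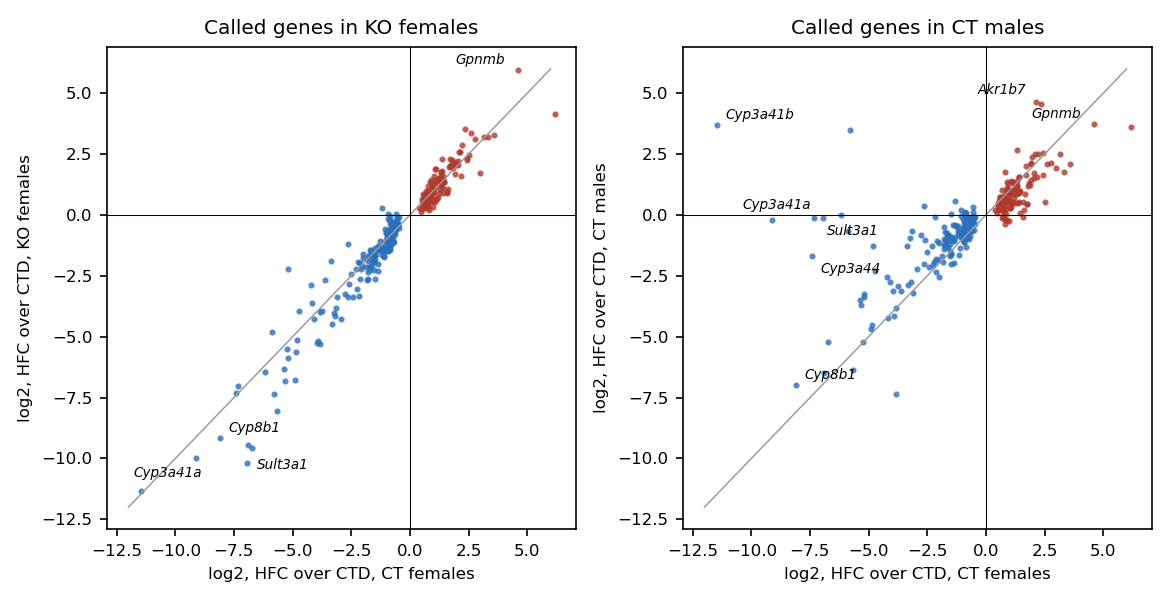
Log2 fold change, HFC over CTD, of the 307 genes called in CT females (horizontal) against the same genes in KO females (left) and CT males (right), with genes that rose in red, genes that fell in blue and a line of equal values. The genes lie along the line in KO females, and in CT males Cyp3a41a, Cyp3a41b, Cyp3a44 and Sult3a1 leave it because they are near 0 CPM in males on both diets.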

How the data were processed

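Total RNA of whole snap-frozen liver was sequenced by BGI with DNBSEQ chemistry, 1 library per animal, per the labels. The authors deposited raw read counts per gene with 1 column per animal, and those counts were used for both sexes (28 columns used, 0 left out). The CPM tables they also deposited were not used. The tools named per the submitters' processing notes are FastQC and edgeR, and the build is GRCm38 (mm10). Aligner, counter, annotation and strand setting were not stated in the sources used here, so near-copies (Cyp3a41a and Cyp3a41b, Mup genes, Ahcy and its pseudogenes) and overlapping genes are uncertain.

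Computed here: TMM factors and filterByExpr in edgeR 4.0.16 (R 4.3.3), 1 mean per group over the 12 female libraries with robust quasi-likelihood dispersion (biological coefficient of variation 0.199), F tests, and Benjamini-Hochberg adjustment over all tested genes, called under 0.05. SE is the log2 value over the root of F, an approximation. A fit of all 28 libraries gave the male effects and the sex difference. Each animal has its own number, so none were paired, and p-values measure the spread between animals. With 3 against 3 an exact permutation test cannot go below 0.1. Alternatives were DESeq2 1.42.0, limma 3.58.1 with voom, other scalings, filters and sets of libraries, and leaving out each animal. Steps were tested on simulated counts.

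The comparison, the 41 gene lists (868 entries, 844 genes, 1 entry not in the table) and the rules were chosen with earlier results of these data known. Lists are described by counts and medians, with no set test. Named genes are the 12 largest called rises and falls at 5 CPM or more without overlap, the 10 smallest p, and up to 5 called members per list or the 2 of smallest p. Not every gene the rule selects is printed. Symbols matched GENCODE M21 for 96.5% of genes, which gave coordinates counted from 1. List levels are means of log2(CPM + 1). Promoters were aligned with Biopython 1.88. Some items are not reported here.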

Additional observations from a re-analysis of the deposited data

Results flagged for a closer look

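The diet effect on Car2 differed between the sexes by the test of the difference itself, with a CT female minus CT male value of -1.30 on the log2 scale (edgeR adjusted p = 0.00127). All 3 CT females on HFC lay below all 3 on CTD, while the 4 CT males on HFC overlapped the 4 on CTD.

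On the TMM scale the diets separated in opposite directions in the 2 female genotypes for Oser1. With library totals the CT value was 0.15, positive as in KO females, so the opposite directions rest on the scaling. CT females had 20.1, 21.1 and 20.5 CPM on HFC, against 22.4, 22.9 and 22.4 CPM on CTD, and KO females had 23.0, 21.2 and 22.0 CPM on HFC, against 17.1, 16.4 and 16.8 CPM on CTD. The CT minus KO difference was -0.53 (edgeR adjusted p = 0.991), so it did not pass over all genes.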

How the results depend on the processing

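The count of 307 genes called in CT females was 919 with DESeq2, 1827 with library totals, 804 with only the 6 CT female libraries and 1421 with all 28 libraries, the last chosen after seeing the data, and ranged from 72 to 417 when 1 CT female was left out. DESeq2 size factors (310), a minimum count of 50 (318), no filter (300), no robust dispersion (300) and limma with voom (237) stayed within 1.5 times. The genotype difference gave 0 calls in all settings except 1 call without KO HFC animal 413, so 0 to 1 over the left-out animals. The sex difference gave 1 call, 44 with DESeq2, 11 with voom, 3 with library totals and 1 to 12 over the left-out animals, with 12 without CTD animal 318. No called gene named by the rule changed direction. Oser1, not called, read 0.15 with library totals, and its opposite direction to KO females was then lost. Of the list medians near 0, 7 changed sign. With library totals bile acid transport read 0.17, fatty acid oxidation 0.17 and apolipoproteins 0.19. Fatty acid synthesis read 0.051 with library totals and -0.35 to 0.064 over the left-out animals, positive without CTD 308. Conjugation enzymes read 0.22 with library totals and -0.13 to 0.0043, positive without HFC 420. Lipid droplet genes read -0.046 to 0.12, negative without CTD 306, CTD 318, HFC 510 or HFC 512. Iron genes read -0.034 to 0.020, negative without CTD 318, HFC 510 or HFC 512. The causes were not tested. No paired analysis was possible because no animal number is shared between groups. Precision is limited by 3 animals a group; depth was 18741939 counts a library or more.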
